A study of Mus musculus with 6 samples.

Results

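Aquaporins are membrane channels that let water, and in some cases glycerol, cross cell membranes, and vasopressin receptors are the cell surface receptors for the antidiuretic hormone. The genes described here were taken by symbol from the deposited expression table: the aquaporins Aqp1, Aqp2, Aqp3, Aqp4, Aqp5, Aqp6, Aqp8 and Aqp11 and the vasopressin receptors Avpr2 and Avpr1a. Of these 10 symbols, 9 had values, among 21456 symbols with values in all. Aqp8, a channel for water and ammonia, was listed with a question mark in every library and has no value.

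The study profiled messenger RNA of the ureteric epithelium, the branching epithelial tree that forms the collecting ducts of the kidney, in mouse embryos of the CFW strain at stage E16.5. The 3 tip libraries came from cells labelled Wnt11RFP+;Hoxb7GFP+, and the 3 stalk libraries from cells labelled Wnt11RFP-;Hoxb7GFP+. Both groups thus carry the green Hoxb7 reporter, which marks the ureteric epithelium, and they differ in the red Wnt11 reporter, which marks the growing branch tips. The labels do not say whether the libraries of a group came from different animals. The p-values below therefore speak only of the spread between libraries, which could be technical.

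In the adult collecting duct, vasopressin binds the receptor encoded by Avpr2 on the basolateral side of principal cells and raises cyclic AMP through a stimulatory G protein and adenylyl cyclase. Protein kinase A then phosphorylates AQP2, vesicles carrying AQP2 fuse with the apical membrane, and the water that enters leaves the cell through AQP3 and AQP4 on the basolateral side. Cyclic AMP also acts on transcription of Aqp2. Urine is concentrated only later in development, and the stalk is the part of the tree that gives rise to the collecting ducts.

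Nearly all aquaporins carry a pair of short boxes, asparagine-proline-alanine (NPA), that meet in the middle of the pore. The first box is shown as written in the coding sequence of each gene below, from the GENCODE M21 annotation of mm10. It is read 5′ to 3′ along the coding strand, with the 9 bases of the box in capitals and 3 codons on each side.
Aqp2, codon 68, chr15:99579345-99579371, plus strand: gcccacatcAACCCTGCTgtgactgtg
Aqp5, codon 69, chr15:99591467-99591493, plus strand: ggccacatcAATCCGGCCattactctg
Aqp6, codon 79, chr15:99601633-99601659, plus strand: gcccacgccAACCCTGCTgtgaccctg
Aqp3, codon 83, chr4:41094810-41094836, minus strand: gcccacttgAACCCCGCTgtgaccttc
Aqp11, codon 99, chr7:97737676-97737702, minus strand: acagctagcAACCCGTGCggcgtgatg
The first box of Aqp11 encodes NPC in place of NPA, a known mark of the unorthodox branch of the family, while its second box, at codon 216, encodes NPA. Over the whole coding sequence Aqp2 and Aqp5 were identical at 70.1% of aligned bases, Aqp2 and Aqp6 at 67.8%, Aqp5 and Aqp6 at 67.3% and Aqp2 and Aqp3 at 62.2%. The longest run of bases shared without a mismatch was 17 between Aqp2 and Aqp5, 17 between Aqp2 and Aqp6 and 23 between Aqp5 and Aqp6.

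Aqp2, Aqp5 and Aqp6 lie head to tail on the plus strand of chromosome 15, at 99579055 to 99584547, 99590782 to 99594829 and 99601400 to 99605477 in mm10, separated by 6234 and 6570 bases. Aqp3 lies on the minus strand of chromosome 4 at 41092722 to 41098183, Aqp11 on the minus strand of chromosome 7 at 97724006 to 97738289 and Aqp1 on the plus strand of chromosome 6 at 55336432 to 55348555. Avpr2 lies on the plus strand of chromosome X at 73892102 to 73895502, and Avpr1a on the plus strand of chromosome 10 at 122448499 to 122453452.

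The values are RPKM, reads scaled by transcript length and by the reads mapped in each library, so levels can be compared between genes per length. The RPKM of a library summed to 345123 to 366035, and 12194 to 12472 genes reached 1 RPKM. These sums follow from the unit, and the sequencing depth is unknown. Wnt11, the gene named in the red reporter, had a mean log2(RPKM + 1) of 9.37 in tip and 3.16 in stalk, a difference of 6.20 (limma, adjusted p = 0.000162), which was 5.39 without stalk replicate 1 and 6.96 without stalk replicate 3. On the first principal component, with 82.9% of the variance, the groups separated, and on the second, with 9.21%, 2 libraries, tip replicate 2 and stalk replicate 1, lay away from the remaining 4.

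Aquaporin transcripts were far more abundant in stalk than in tip. Summed over the 7 aquaporins with values, they reached 8.58, 18.5 and 11.7 RPKM in the tip libraries and 572, 952 and 825 RPKM in the stalk libraries. Every stalk library was thus well above every tip library. The mean was 12.9 ± 5.07 RPKM in tip and 783 ± 193 RPKM in stalk (SD, n = 3 each), a 60.6-fold ratio, with an exact two-sided permutation p of 0.1, the smallest that 3 against 3 libraries allow. In these bulk samples, a smaller share of cells that express a gene and less RNA of it per cell cannot be told apart.

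Differences of single genes were tested with limma on log2(RPKM + 1) over the 12532 genes whose mean reached 1 RPKM, with the Benjamini-Hochberg adjustment over all of them and 0.05 as the threshold. A fold change below 0 means higher in stalk than in tip. Values on this scale understate the change of low genes. Of the 8 listed genes tested, 7 were called and all 7 were higher in stalk, among them 5 of the 6 aquaporins tested, beside 22.5% of all genes tested called higher in stalk and 48.6% called in either direction. None of them was called higher in tip, beside 26.1% of all genes tested. In all 8 genes every stalk library lay above every tip library, beside 26.5% of all genes tested, and the reverse held for 31.3%. Their median log2 fold change was -3.17, beside 0.05 over all genes tested. Aqp5, Aqp6 and Avpr1a had tip means below 1 RPKM and entered the test through their stalk values, so these counts describe the genes tested and lend no support of their own.

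**Figure D1:**
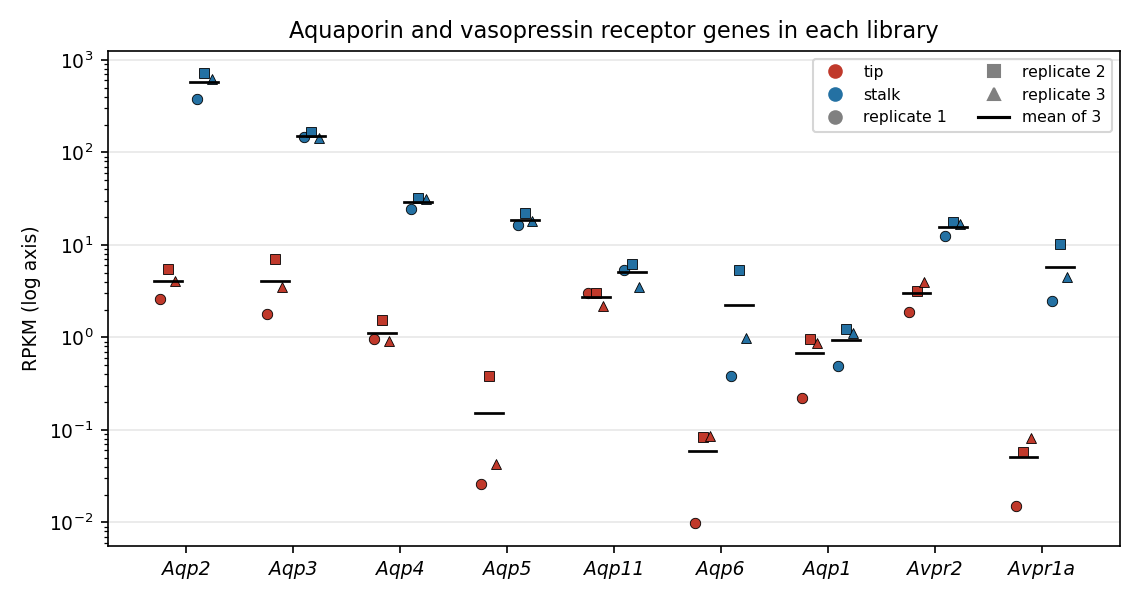
RPKM of each gene in each library on a log axis, tip in red and stalk in blue, with the symbol giving the replicate and the black line the mean of 3 libraries. The colours do not overlap except for Aqp1, and the gap is widest for Aqp2, Aqp5 and Avpr1a.

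Aqp2, the vasopressin-regulated channel of the apical membrane, was the most abundant aquaporin in stalk. Its level was 2.58, 5.53 and 4.06 RPKM in the tip libraries and 377, 719 and 628 RPKM in the stalk libraries. The stalk libraries were all high and the tip libraries all low, with stalk replicate 1 the lowest of its group. The mean was 4.06 ± 1.47 RPKM in tip and 575 ± 177 RPKM in stalk (SD, n = 3 each), a 142-fold ratio. The log2 fold change was -6.82 (SE 0.28, 95% interval -7.45 to -6.19, limma adjusted p = 3.93e-06), and only 3 of the 12532 genes tested had a lower one. Ranked by mean RPKM among all symbols, Aqp2 stood at place 63 in stalk and at place 9554 in tip.

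Aqp3, which carries water and glycerol across the basolateral membrane, followed at 1.77, 6.97 and 3.51 RPKM in tip and 148, 166 and 142 RPKM in stalk. The stalk libraries were close together, and among the tip libraries replicate 2 was the highest. Its mean was 4.08 ± 2.64 RPKM in tip and 152 ± 12.6 RPKM in stalk (SD, n = 3 each), a 37.2-fold ratio, and its log2 fold change was -5.04 (SE 0.32, limma adjusted p = 1.43e-05). Without tip replicate 2 the ratio was 57.5-fold. In tip the levels of Aqp2 and Aqp3 did not differ beyond their spread, whereas in stalk every library had more Aqp2 than Aqp3.

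Aqp4, the other basolateral water channel, was at 0.950, 1.52 and 0.909 RPKM in tip and at 24.7, 31.9 and 31.4 RPKM in stalk. The groups were well apart, and the tip libraries were near 1 RPKM. Means were 1.13 ± 0.344 and 29.3 ± 4.01 RPKM (SD, n = 3 each), a 26.0-fold ratio, and the log2 fold change was -3.84 (SE 0.16, limma adjusted p = 3.94e-06).

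Aqp5, a channel best known from salivary, lacrimal and airway epithelium, was at 0.0261, 0.382 and 0.0430 RPKM in tip and at 16.4, 21.9 and 18.1 RPKM in stalk. Tip replicate 2 had the highest tip value, as it did for Aqp2, Aqp3 and Aqp4, and all tip values were far below the stalk values. The stalk mean was 18.8 ± 2.82 RPKM (SD, n = 3) and the log2 fold change -4.11 (SE 0.18, limma adjusted p = 3.96e-06). The symbol had 2 rows in the table, of which the lesser made up 13.0% of the sum and was at 3.43, 0.0775 and 3.82 RPKM in the stalk libraries.

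Aqp11, a channel of the endoplasmic reticulum whose loss causes cysts in the mouse kidney, differed least among the genes called. It was at 3.01, 3.05 and 2.21 RPKM in tip and at 5.38, 6.29 and 3.48 RPKM in stalk. The groups did not overlap, but the lowest stalk library was close to the highest tip library. Means were 2.76 ± 0.475 and 5.05 ± 1.43 RPKM (SD, n = 3 each), a 1.83-fold ratio, and the log2 fold change was -0.67 (SE 0.21, limma adjusted p = 0.0272). This call was lost in 6 of 14 alternatives: with no minimum mean the adjusted p was 0.0753, without tip replicate 1 it was 0.0540, without tip replicate 3 0.0950, without stalk replicate 1 0.0662, without stalk replicate 2 0.0825, and without tip replicate 2 and stalk replicate 1 together 0.0723.

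Aqp6, known from intracellular vesicles of acid-secreting intercalated cells and permeable to anions, was low in both groups. It was at 0.00981, 0.0836 and 0.0863 RPKM in tip and at 0.384, 5.33 and 0.988 RPKM in stalk. Stalk replicate 2 was high and stalk replicate 1 low, and no stalk value overlapped the tip values. The stalk mean was 2.23 ± 2.70 RPKM (SD, n = 3), and the log2 fold change of -1.29 (SE 0.49, 95% interval -2.41 to -0.17) had a limma adjusted p of 0.0575, which missed the threshold. The adjusted p was 0.0156 with a pseudocount of 0.1, 0.0121 without stalk replicate 1 and 0.0235 without tip replicate 2 and stalk replicate 1 together. With the replicate block, which takes the replicate number of the labels as a block, it was 0.0447. Without stalk replicate 2 the mean of the gene fell below 1 RPKM and it was not tested.

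Aqp1, the constitutive water channel of the proximal tubule and the thin descending limb, was at 0.223, 0.954 and 0.879 RPKM in tip and at 0.496, 1.24 and 1.11 RPKM in stalk. The groups overlapped, although not without stalk replicate 1, and the mean of the 6 libraries, 0.816 RPKM, was below the minimum for testing. Aqp12 was listed with a question mark in every library. Among the other family members, the highest value in any library was 0.0622 RPKM for Aqp7, a glycerol channel of fat cells, 0.0686 RPKM for Aqp9, a solute channel of the liver, and 0.169 RPKM for Mip, the channel of the eye lens. All 3 were listed at 0 in at least 4 of the 6 libraries.

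Avpr2, the receptor that raises cyclic AMP in response to vasopressin, was present in both groups. It was at 1.87, 3.15 and 3.97 RPKM in tip and at 12.6, 17.6 and 16.9 RPKM in stalk. Every stalk library was above every tip library. Means were 3.0 ± 1.06 and 15.7 ± 2.69 RPKM (SD, n = 3 each), a 5.24-fold ratio, and the log2 fold change was -2.09 (SE 0.22, limma adjusted p = 0.000129). Of its 4 rows, the leading one made up 92.4% of the sum. The whole of Avpr2 lies within Arhgap4, a gene on the opposite strand, which averaged 2.08 ± 0.239 RPKM in tip against 2.99 ± 0.198 in stalk (SD, n = 3 each; log2 fold change -0.38, limma adjusted p = 0.0581, called in 2 of 13 alternatives). The use of strand in the authors' quantification is not given in the sources used here, so reads of this pair cannot be told apart.

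Avpr1a, the vasopressin receptor that signals through calcium and is known from blood vessels and intercalated cells, was at 0.0151, 0.0573 and 0.0813 RPKM in tip and at 2.45, 10.1 and 4.54 RPKM in stalk. Stalk replicate 2 was high and stalk replicate 1 low, as for Aqp6, and all stalk values were above all tip values. The stalk mean was 5.71 ± 3.97 RPKM (SD, n = 3), and the log2 fold change was -2.51 (SE 0.37, limma adjusted p = 0.000804). Without stalk replicate 2 the stalk mean was 3.49 RPKM and the log2 fold change -2.06. The other receptors of the family were near 0, with no library above 0.0405 RPKM for Avpr1b and none above 0.248 RPKM for the oxytocin receptor Oxtr. The hormone gene Avp did not exceed 0.113 RPKM in any library.

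**Figure D2:**
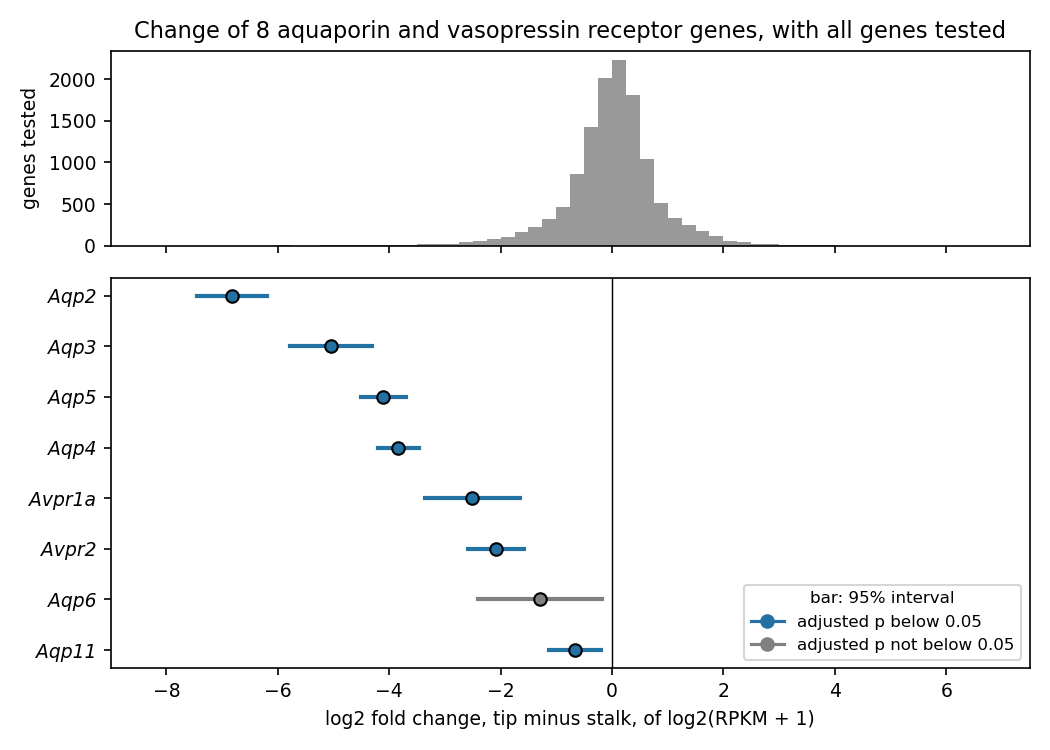
Upper panel: number of genes tested at each log2 fold change. Lower panel: log2 fold change of log2(RPKM + 1), tip minus stalk, of the 8 genes tested, with 95% intervals from limma; blue marks an adjusted p below 0.05 and grey marks Aqp6, at 0.0575. All 8 lie to the left of 0, from Aqp2 at -6.82 to Aqp11 at -0.67.

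The order of the mean levels in stalk was Aqp2, Aqp3, Aqp4, Aqp5, Avpr2, Avpr1a, Aqp11, Aqp6 and Aqp1. Aqp2, Aqp3, Aqp4 and Aqp5 did not overlap each other in any pair of stalk libraries. Aqp5 and Avpr2 overlapped, as did Avpr1a, Aqp11 and Aqp6, and Aqp6 overlapped Aqp1. In tip the order was Aqp3, Aqp2, Avpr2, Aqp11, Aqp4, Aqp1, Aqp5, Aqp6 and Avpr1a, and the first 4 of these overlapped one another.

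The aquaporins did not keep the same proportions in both groups. Aqp2 made up 30.1, 29.9 and 34.7% of the aquaporin sum in the tip libraries and 65.9, 75.5 and 76.1% in the stalk libraries. Its mean share of 31.6% ± 2.71 in tip and 72.5% ± 5.74 in stalk (SD, n = 3 each) did not overlap. The share of Aqp11 went the other way, at 23.5% ± 10.1 in tip and 0.675% ± 0.260 in stalk (SD, n = 3 each, no overlap), although its level was higher in stalk. The mean shares of Aqp4 (9.03% in tip, 3.82% in stalk) and Aqp1 (5.09%, 0.117%) were also lower in stalk without overlap. That of Aqp5 was higher in stalk (0.913%, 2.45%), with tip replicate 2, at 2.07%, close to the lowest stalk library, at 2.19%. That of Aqp6 overlapped (0.435%, 0.249%). The share of Aqp3 was 29.5% ± 8.51 in tip and 20.2% ± 4.90 in stalk (SD, n = 3 each) with an exact permutation p of 0.2. It overlapped between the groups, which it did not without stalk replicate 1 or without tip replicate 1. For Aqp1, Aqp2, Aqp4, Aqp5 and Aqp11 the exact permutation p was 0.1, the smallest possible.

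The balance between apical and basolateral channel transcripts also differed. Within a library, the ratio of Aqp2 to Aqp3 was 1.46, 0.793 and 1.16 in the tip libraries and 2.55, 4.32 and 4.42 in the stalk libraries. The groups did not overlap (exact permutation p = 0.1). Relative to the receptor, the gap was wider: the ratio of Aqp2 to Avpr2 was 1.38, 1.75 and 1.02 in tip and 29.8, 40.8 and 37.3 in stalk, again with no overlap and an exact permutation p of 0.1. The ratio of Aqp3 to Avpr2 was 1.35 ± 0.746 in tip and 9.86 ± 1.67 in stalk (SD, n = 3 each). The ratio of Aqp4 to Aqp3 was 0.536, 0.219 and 0.259 in tip and 0.167, 0.192 and 0.221 in stalk (exact permutation p = 0.2). The overlap rested on tip replicate 2 and stalk replicate 3, and without either library the tip values were all above the stalk values.

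**Figure D3:**
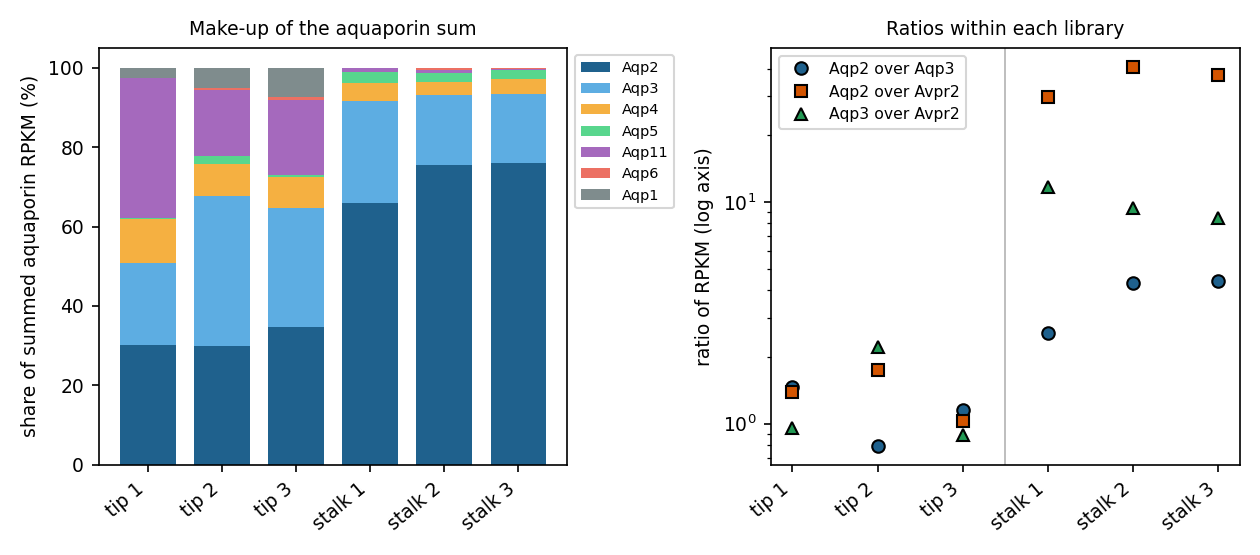
Left: share of each aquaporin in the summed aquaporin RPKM of each library, in percent. Right: ratios of RPKM within each library on a log axis; the stalk libraries lie above the tip libraries in all 3 ratios, with Aqp2 over Avpr2 at 29.8 to 40.8 in stalk and 1.02 to 1.75 in tip.

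The stalk libraries differed among themselves in some of these genes and not in others. The highest stalk library exceeded the lowest 1.17-fold for Aqp3, 1.29-fold for Aqp4, 1.34-fold for Aqp5, 1.40-fold for Avpr2 and 1.91-fold for Aqp2, but 4.14-fold for Avpr1a and 13.9-fold for Aqp6. Stalk replicate 2 was the highest library for all 9 genes with values. The summed principal cell list varied 1.09-fold over the same libraries, and the intercalated cell list, at 404, 723 and 525 RPKM, varied 1.79-fold with replicate 2 again the highest and replicate 1 the lowest. The urothelium list varied 2.0-fold in the same order of libraries. The proximal tubule list, at 2.07, 15.4 and 4.38 RPKM in stalk, varied 7.42-fold in that order too. The endothelium list ran the other way, at 98.1, 58.5 and 75.2 RPKM, with replicate 1 the highest and replicate 2 the lowest. The part of these other cell types in the spread of Aqp6 and Avpr1a was not tested.

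**Figure D4:**
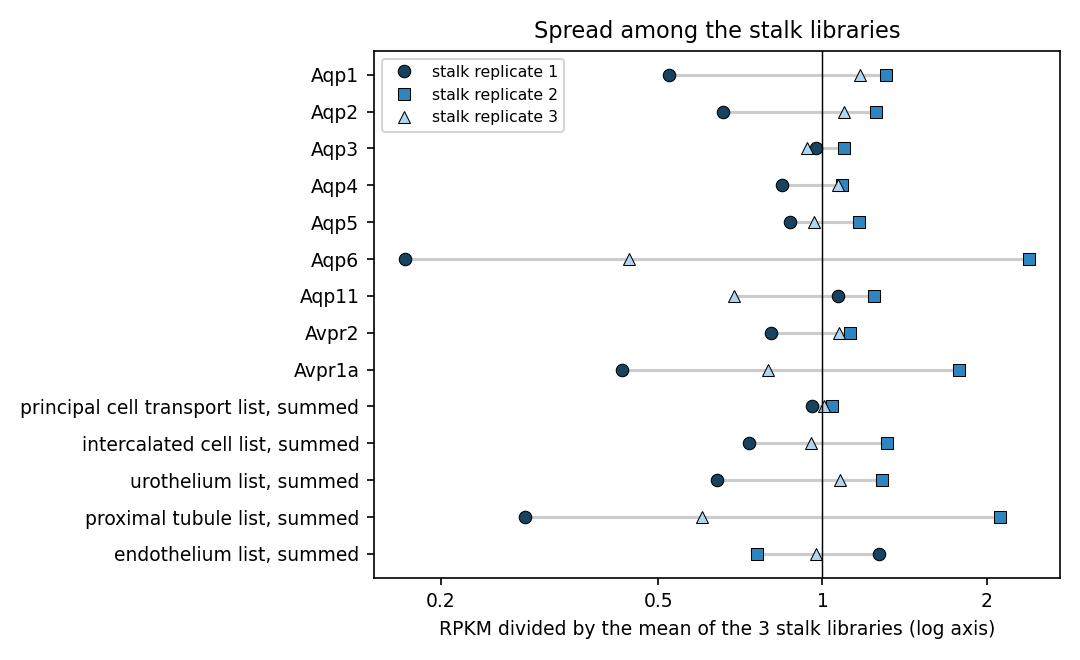
Level of each gene, and of the summed RPKM of each marker list, in the 3 stalk libraries divided by their mean, on a log axis. Aqp3, Aqp4, Aqp5 and Avpr2 stay close to 1, while Aqp6 and Avpr1a spread as far as 13.9-fold and 4.14-fold between replicate 1 and replicate 2.

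Genes listed for several other cell types also moved with the group, in either direction. Of the intercalated cell list, 13 of 13 genes tested were higher in stalk, beside 22.5% of all genes tested. Their median log2 fold change was -4.23, and the sum of the list was 32.8 to 40.5 RPKM in tip and 404 to 723 RPKM in stalk. Not tested were Slc26a4, which averaged 0.122 RPKM in tip against 0.132 in stalk, and Slc4a1, at 0.0302 against 1.83. Of the urothelium list, 10 of 11 were higher in stalk (sum 3.80 to 4.90 RPKM in tip and 313 to 627 RPKM in stalk), including Upk3a, a uroplakin of the bladder and ureter lining, which averaged 221 RPKM in stalk and was listed at 0 in 2 tip libraries. Of the endothelium list, 10 of 11 were higher in stalk and 1, Eng (0.38), whose call was lost in 10 of 15 alternatives, in tip (sum 18.7 to 19.6 RPKM in tip and 58.5 to 98.1 RPKM in stalk). Of the proximal tubule list, 2 of 12 genes reached the minimum mean and neither was called, with a sum of 4.78 to 7.76 RPKM in tip. Without stalk replicate 1, Slc34a1, a phosphate transporter gene, was called higher in stalk (-0.76, limma adjusted p = 0.0434) and Slc27a2, a fatty acid transporter gene, higher in tip (0.98, limma adjusted p = 0.0207). Slc27a2 was also called higher in tip without stalk replicate 2, without stalk replicate 3, without tip replicate 2 and stalk replicate 1 together, and, with Slc22a8, when no minimum mean was set. No marker in the intercalated cell, urothelium, endothelium and proximal tubule lists was at 0 in all 6 libraries. Of 7 genes tested from the nephron progenitor and early nephron list, 5 were higher in tip, such as Ccnd1 (2.81), beside 26.1% of all genes tested. From the same list 1, Wnt4 (-3.74), was higher in stalk. Another 5 were below the minimum for testing, such as Six2 (0.638 RPKM in tip against 0.148 in stalk) and Osr1 (0.0455 against 0.535). Which cells the transcripts of this list came from was not tested. The loop of Henle and distal tubule list had 1 of 4 called in stalk and 2 in tip, and the immune list 1 of 3 each way. In the stroma list 1 of 4 was called and in the erythroid list 1 of 3, each higher in stalk, and in the podocyte list none of 4. Most genes called higher in stalk in the intercalated cell, urothelium and endothelium lists had tip means below 1 RPKM, such as Slc4a9 at 0.0943 and Cdh5 at 0.804. They entered the test through their stalk values, so these counts describe the genes tested and lend no support of their own. The part of these cell types in the aquaporin and receptor differences was not tested.

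The other transport genes of principal cells that were tested moved the same way with 1 exception. Of 14 tested, 13 were higher in stalk and 1 in tip, beside 22.5% and 26.1% of all genes tested, and the median log2 fold change was -2.07. The lowest was that of Fxyd4, an FXYD subunit of the sodium pump, at -4.68 (limma adjusted p = 2.74e-06), from means of 0.410 RPKM in tip against 34.6 in stalk. Scnn1a and Scnn1b, subunits of the epithelial sodium channel, had log2 fold changes of -4.52 and -3.37. Tmem45b, a membrane protein of collecting duct cells, had one of -3.45. Calb1, a calcium-binding protein, was the exception, with a mean of 327 RPKM in tip against 54.9 in stalk (log2 fold change 2.68, limma adjusted p = 0.000248). Fxyd4, Scnn1a and Kcne1 had tip means below 1 RPKM and entered the test through their stalk values. Kcnj1 and Ptger3 were below the minimum for testing and overlapped between the groups, and Apela had no value.

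Genes of the cyclic AMP pathway downstream of Avpr2 showed no common direction. Of 17 tested, 2 were higher in stalk and 4 higher in tip, beside 22.5% and 26.1% of all genes tested. The other 11 were not called, and the median log2 fold change was -0.03. The main G protein and kinase subunit genes were not called: Gnas, the stimulatory G protein, averaged 510 ± 22.0 RPKM in tip against 521 ± 6.20 in stalk, and Prkaca, the catalytic subunit of protein kinase A, 49.1 ± 0.902 against 49.3 ± 1.63 RPKM (SD, n = 3 each). Their limma adjusted p were 0.788 and 0.970. Adcy3, an adenylyl cyclase, was higher in tip at 4.03, 3.18 and 3.94 RPKM, against 0.648, 0.752 and 0.687 RPKM in stalk (log2 fold change 1.47, limma adjusted p = 0.000123). The phosphodiesterase Pde3b, which breaks down cyclic AMP, was also higher in tip (0.91), as were, by less, the phosphodiesterase Pde4a (0.54, a call lost in 6 of 14 alternatives) and the adenylyl cyclase Adcy6 (0.39). The phosphodiesterase Pde4c (-1.41) and the kinase anchor Akap12 (-1.99) were higher in stalk. Akap12 was at 35.8, 7.94 and 9.27 RPKM in the stalk libraries, and without stalk replicate 1 its log2 fold change was -1.34 (limma adjusted p = 0.000928). Without tip replicate 3 the count higher in tip was 2 in place of 4.

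Of 30 genes for the traffic and turnover of AQP2 vesicles, all tested, 10 were higher in stalk and none in tip, beside 22.5% and 26.1% of all genes tested. The other 20 were not called, and the median log2 fold change was -0.18. The calls of Rab5a, whose groups overlapped, Snap23 and Stx4a were lost in 8, 7 and 2 of 15 alternatives. Rab5c, Myo5b and Dctn1, not called, were called higher in stalk in 4, 3 and 1 of 15. With the replicate block, without stalk replicate 2 and with the highest row of a symbol, 1 gene, the chaperone gene Hspa8, was called higher in tip. Arhgdib averaged 15.5 RPKM in tip against 78.6 in stalk (log2 fold change -2.30), and Anxa2, a membrane-binding annexin, at 29.6 and 130.0 RPKM (-2.15). Nedd4l, a ubiquitin ligase of the sodium channel and of AQP2, was at 8.02 and 30.8 RPKM (-1.82), and Rab11a, a small GTPase of recycling vesicles, at 36.0 and 93.9 RPKM (-1.37). All 4 had limma adjusted p of 0.000145 or less.

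Of 17 transcription factors tested that are reported or proposed to act on Aqp2, 7 were higher in stalk and 4 higher in tip. Of all genes tested, 22.5% were called higher in stalk and 26.1% in tip. The other 6 factors were not called, and the median log2 fold change was -0.44. The epithelial ETS factor Elf5 was at 2.71, 6.59 and 3.80 RPKM in tip and at 52.9, 68.3 and 73.9 RPKM in stalk (log2 fold change -3.67, limma adjusted p = 1.86e-05). Nr3c1, the glucocorticoid receptor, had a log2 fold change of -2.42, Gata2, a zinc finger factor, one of -2.09, and Elf3, another ETS factor, one of -1.54. Those higher in tip were Nfatc1 (1.40), Tfap2b (0.83) and, among cyclic AMP responsive factors, Creb1 (0.43) and Atf1 (0.38, a call lost in 5 of 15 alternatives). Another such factor, Crem, leaned to stalk (-1.02, limma adjusted p = 0.0531) and was called in 3 of 15 alternatives. Also not called, Fos (-1.19) and Ehf (-0.26) were each called higher in stalk in 4 of 15, and Hoxb7 (0.48) higher in tip in 2 of 15. Of the genes for osmolyte and urea handling, 6 of 9 tested were higher in stalk and none in tip, beside the same 22.5% and 26.1% (median log2 fold change -0.74). The amino acid transporter gene Slc7a5, at 0.74 with a limma adjusted p of 0.0627, was called higher in tip with the replicate block (0.0473), without tip replicate 3 (0.0410), without stalk replicate 1 (0.00571) and without tip replicate 2 and stalk replicate 1 together (0.00480). The genes called higher in stalk included Akr1b3, the aldose reductase that makes sorbitol (-1.84), the urea transporter gene Slc14a2 (-0.96) and the heat shock genes Hspa1b (-2.75) and Hspa1a (-2.09). The heat shock genes also belong to the list of immediate early and heat shock genes, of which 9 of 14 were higher in stalk, beside 22.5% of all genes tested. In tip 1 was higher, Hsph1 (0.63, a call lost in 5 of 15 alternatives), beside 26.1%. The calls of Jun, also among the transcription factors, and Junb were lost in 6 and 5 of 15, and their groups overlapped. Fos and Ier2, not called, were called higher in stalk in 4 and 3 of 15.

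**Figure D5:**
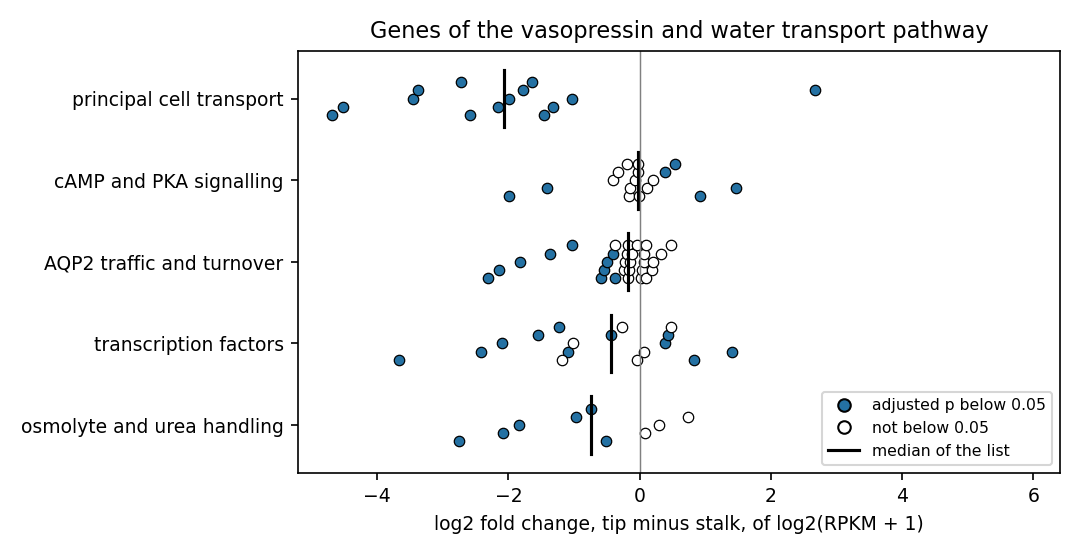
Log2 fold change of log2(RPKM + 1), tip minus stalk, of each gene tested in 5 lists; filled points have a limma adjusted p below 0.05, and the black bar is the median of the list. The cyclic AMP list centres on -0.03 with calls on both sides, while the principal cell list lies at a median of -2.07 with 1 gene to the right.

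The promoters of the most abundant pair are shown because vasopressin acts on Aqp2 transcription through cyclic AMP. Promoter windows of 250 bases before the annotated start, from RefSeq GRCm38.p6, were found for 9 of the 10 symbols. Each of the pair is written along the coding strand with the matches of the cyclic AMP, GATA and TATA motifs described below in capitals (1 base shorter for Aqp2, since GENCODE places the last base of its window in the transcript).
Aqp2, chr15:99578806-99579054, plus strand: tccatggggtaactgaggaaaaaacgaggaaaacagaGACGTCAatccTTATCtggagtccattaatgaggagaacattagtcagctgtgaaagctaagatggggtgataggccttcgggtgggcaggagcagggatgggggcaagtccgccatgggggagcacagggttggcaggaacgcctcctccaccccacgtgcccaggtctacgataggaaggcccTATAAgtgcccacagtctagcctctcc
Aqp3, chr4:41098184-41098433, minus strand: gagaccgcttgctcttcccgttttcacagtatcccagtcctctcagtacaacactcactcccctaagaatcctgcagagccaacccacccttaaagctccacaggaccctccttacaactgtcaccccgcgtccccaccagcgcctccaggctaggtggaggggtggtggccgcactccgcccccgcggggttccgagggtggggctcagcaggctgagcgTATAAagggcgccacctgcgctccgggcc
The Aqp2 window holds GACGTCA, the core of the cyclic AMP response element, at 213 to 207 bases before the start. Searched on both strands (GACGTCA or TGACGTC), this core occurred in 2.78% of 32817 RefSeq windows of the same length and in no other of the 9 windows. The Aqp2 window also holds TTATC, the GATA motif GATAA read on the other strand, at 202 to 198 bases before the start, a motif in 22.6% of all windows. The TATA motif TATAA stands 28 to 24 bases before the start in Aqp2 and 29 to 25 bases in Aqp3, and it or its reverse TTATA occurs in 22.8% of all windows. These are matches of letters and not measured binding sites.

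The neighbours of these genes on the chromosome did not all move with them. Beyond Aqp6 on chromosome 15, Racgap1, a regulator of cell division, averaged 41.9 ± 6.34 RPKM in tip against 15.1 ± 1.99 in stalk (SD, n = 3 each), with a log2 fold change of 1.41 (limma adjusted p = 0.000105), opposite in direction to Aqp2 and Aqp5. Next to Aqp3, Aqp7 was near 0, and Nol6, a nucleolar protein gene, was not called (0.26, limma adjusted p = 0.0857). Next to Aqp11, Clns1a was higher in tip (0.70, limma adjusted p = 0.00166) and Pak1 was not called (-0.03, limma adjusted p = 0.923). Next to Avpr2, Naa10 was higher in tip (0.42, limma adjusted p = 0.0129), as was Chst9 next to Aqp4 (1.08, limma adjusted p = 0.0109). The neighbours Inmt of Aqp1, Gm6304 of Aqp4, and Srgap1 and Ppm1h of Avpr1a were not called, and Gm5808 beside Aqp2 and Adcyap1r1 beside Aqp1 were near 0.

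Among the 9155 genes whose mean reached 5 RPKM, the profiles over the 6 libraries most like that of Aqp3, by root mean square difference of centred log2(RPKM + 1), were those of Krt19 (0.0707), Rhcg (0.233), Adh1 (0.266), Fxyd4 (0.323) and Serpinb6b (0.378). Krt19, a keratin of simple epithelium, was at 4.76, 14.6 and 8.0 RPKM in tip and at 277, 310 and 303 RPKM in stalk, so that tip replicate 2 was again the highest of its group. For Aqp2 they were Sprr2f (0.378), Foxq1 (0.393), Slc4a9 (0.506), Upk3a (0.507) and Ctse (0.601), none as close as the leading matches of Aqp3. Sprr2f, a small proline-rich protein, was at 155, 277 and 270 RPKM in the stalk libraries, with replicate 1 the lowest, as for Aqp2. These likenesses rest on 6 libraries in 2 groups and describe only the shared difference between tip and stalk and the spread within each.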

How the data were processed

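Stranded poly(A) libraries (Kapa kit, RNA from a Qiagen RNeasy micro kit, per the labels' protocols) of 3 tip and 3 stalk samples were analysed. The authors deposited 1 table of RPKM values with 93615 rows, of which 24545 hold question marks and no value. Per the submitters' processing notes, the build was mm10 and the tools were TopHat2, Partek and bcl2fastq 2.17. The annotation, quantification settings and use of strand are not given in the sources used here.

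Question-mark rows were dropped, and RPKM of all rows with the same symbol were added. Rows carry no transcript identifier, and reads of similar aquaporins may be shared. The 12532 genes whose mean reached 1 RPKM were tested on log2(RPKM + 1) with limma 3.58.1 (R 4.3.3) and a mean-variance trend, two-sided, and the Benjamini-Hochberg adjustment over all genes at a threshold of 0.05. The fit was tested on simulated data. Ratios of RPKM are given only for genes with at least 0.05 RPKM in every tip library. Sums and ratios per library were tested by exact two-sided permutation over libraries. Sequences were read with Biopython 1.88 from GENCODE M21 and RefSeq tables.

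The genes, lists and rules were chosen with earlier results of these data known. All 10 genes and the rest of the aquaporin family were named. From each other list, the genes open to naming were up to 4 called with the largest change, and the 2 most abundant where fewer than 2 were called. Some others, such as Calb1, Gnas, Prkaca and Wnt11, were singled out after their values were seen. For Aqp2 and Aqp3 the 5 most alike genes were named, and for each gene its neighbours on the chromosome.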

Additional observations from a re-analysis of the deposited data

How the results depend on the processing

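The calls of Aqp2, Aqp3, Aqp4, Aqp5 and Avpr2 were kept in all 15 alternatives in which they were tested, and that of Avpr1a in all 14. Over these, the log2 fold change ranged from -7.30 to -5.96 for Aqp2, from -5.45 to -4.15 for Aqp3, from -4.61 to -2.48 for Aqp4, from -6.51 to -2.20 for Aqp5, from -2.40 to -1.37 for Avpr2 and from -5.06 to -1.02 for Avpr1a. No fold change of the listed genes reversed. The calls of Aqp6 and Aqp11 changed, as given above. Between 5 and 8 of the genes were called, with 8 under the replicate block and 5 with a minimum mean of 5 RPKM, where fewer genes were tested. Between same-numbered libraries, the deviations from the group means had correlations of -0.30, -0.34 and 0.09. With 3 libraries per group, and tip replicate 2 and stalk replicate 1 lying apart, these correlations cannot show whether the replicate numbers pair the libraries. The replicate block called 5096 genes in place of 6089, and of the listed genes it changed only the call of Aqp6. With median-ratio scaling the median log2 fold change of all genes shifted by -0.05, and 3166 genes were higher in stalk. Leaving out tip replicate 2 and stalk replicate 1 together, an alternative chosen after seeing the data, left 7 genes called. Leaving out 1 library at a time, the ratio of summed aquaporins was 51.9 to 77.2. Of 540 recomputed list counts, 483 stayed within 1.5 times. With a minimum mean of 5 RPKM fewer genes were tested, and the cyclic AMP list had 1 call higher in stalk and 2 in tip and the endothelium list 1 in stalk. Shares and ratios without single libraries were alternatives chosen after seeing the data. The calls of Adcy6, Creb1 and Naa10 were each lost in 1 of 15 alternatives. Depth is unknown, so no counting interval can be given for values near 0.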
